A study of Mus musculus with 10 samples.

Results

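At 1 h after a single swim, most transcripts of the AP-1 and Egr families of transcription factors stood above their unstressed level. The RNA came from a pull-down of ribosomes tagged in CA3 pyramidal neurons, in mice raised without early life stress. Egr2, Fos and Fosb were higher by 1.45, 1.23 and 1.08 on the log2 scale. In a set of actin- and spectrin-binding genes, among them Sptan1, Gsn and Itpka, these mice lay below every other group of the study. The set was picked for that position after the values were seen. The comparison is between controls exposed to acute forced-swim stress (AS) and unstressed controls. It covers 14986 genes, those with a mean value of at least 3 over all groups, of 20196 entries in the deposited table. Of the 20196 entries, 25 whose symbols had become calendar dates were left out before that filter.

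All groups were male mice of the C57BL/6 strain, aged 70 to 90 days. By the study's methods they were GFP+ Gprin3-BacTRAP littermates, which carry a GFP tag on ribosomes under the control of Gprin3, while the sample labels give the genotype as Wild Type. Unstressed controls had full nesting material as pups and were left undisturbed as adults. Controls exposed to AS (labelled FST) were placed in water of 25°C (2 L in a beaker) to swim for 6 min, and were killed after 1 h in the home cage. The other 2 groups, given as context, had early life stress (ELS), with a wire grid and little nesting material from postnatal day 2 to 12, and one of them (ELS_FST) also swam as adults. Weaning was on day 21 in every group. Each library pooled RNA of 5 to 6 mice. The labels list 2 libraries each for the groups without ELS and 3 each for the groups with ELS, where the methods give 3 per group.

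Translating ribosome affinity purification (TRAP) pulls down tagged ribosomes with an antibody and sequences the RNA bound to them, so that a transcript's value depends on both its amount and its loading onto ribosomes of tagged cells. CA3 pyramidal neurons receive mossy fiber input from the dentate gyrus, carry both corticosteroid receptors and are known for remodeling their dendrites under stress. Immediate early genes are transcribed within minutes of neuronal activity without new protein synthesis. Many of them encode transcription factors, such as the Fos and Jun subunits of AP-1 and the zinc finger Egr proteins, which then act on slower target genes.

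Expression was given as 1 rlog value per gene and group, a log2 value of scaled read counts in which differences of genes with few reads are shrunk. A difference here is the rlog value of controls exposed to AS minus that of unstressed controls, and a difference of 1 is 2-fold on this scale. No value has a replicate error, an SD or a test, since the table holds no values for single libraries. Values of different genes are not per transcript length and were not compared with each other. In samples of this kind, fewer cells of a type and less RNA per cell cannot be told apart, and the same holds for fewer tagged ribosomes. Gprin3 itself, a gene of CA3 pyramidal cells that drives the tag, was 7.47 in unstressed controls, 6.92 after AS, 6.70 with ELS and 6.73 with ELS and AS. Its difference after AS was −0.55.

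Differences after AS centered near 0, with a median of −0.01 and a middle span of genes from −0.15 to 0.13 between the quartiles. Of all genes kept, 48.3% were above 0 and 51.7% below, the shares beside which the counts of each gene list are to be read, and 3.64% differed by over 0.5. By that size, 234 genes (1.56%) were higher and 312 (2.08%) lower, and by over 1, 10 were higher and 7 lower. Higher genes made up 42.9% of those past 0.5, and 56.5% (312 higher, 240 lower) when each group was centered on its median. Syne4 (0.50) was the last gene counted as higher and Sik1 (0.50, just short of the threshold) the first left out, and on the lower side these were Zfp458 and Cntnap3 (both −0.50). Of the 234 higher genes, the unstressed controls were the lowest of the 4 groups in 221 and the controls exposed to AS the highest in 147. Of the 312 lower genes, the unstressed controls were the highest in 265 and the controls exposed to AS the lowest in 168. The choice of genes by this difference favors such positions of both groups, so that these counts are a description only. Over all genes kept, controls exposed to AS were the lowest group in 24.0% and the highest in 21.6%. Unstressed controls were the lowest in 35.0% and the highest in 37.4%. Differences also followed transcript length, with a Spearman correlation of −0.39 across 14694 genes, which are not independent replicates. The median was 0.17 in the decile of genes with the shortest transcripts and −0.12 in that with the longest. What part the control column or transcript length has in the values below was not tested. The ELS groups are printed beside many of these values for context, but not beside all.

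Among marker genes, all 10 of CA3 pyramidal cells passed the filter and 8 were lower after AS, with a median of −0.19. Their group medians were 10.1 in unstressed controls, 9.965 after AS, 9.824 with ELS and 9.888 with both. Dentate granule markers were lower in 12 of 13 (median −0.32, or −0.20 with the length trend removed). Their group medians were 9.50 in unstressed controls, 9.17 after AS, 9.25 with ELS and 9.45 with both. Markers of microglia were higher in 15 of 16 (median 0.20), those of choroid plexus and ependyma in 8 of 9 kept (0.22, or 0.14 with the length trend removed) and hemoglobin and erythroid genes in 4 of 4 kept (0.66, or 0.43 with the length trend removed). Group medians of microglia markers were 6.03 in unstressed controls, 6.43 after AS, 6.55 with ELS and 6.68 with both. In that order they were 5.96, 6.38, 6.11 and 6.11 for choroid plexus and ependyma, and 7.44, 8.10, 8.15 and 8.08 for erythroid genes. Astrocyte, oligodendrocyte, interneuron and endothelial markers were mixed, with medians between −0.05 and 0.04. Astrocyte markers had group medians of 9.60 in unstressed controls, 9.50 after AS, 9.60 with ELS and 10.15 with both, and oligodendrocyte markers 9.90, 9.20, 9.51 and 10.05. The latter medians are the values of Cldn11, the middle gene of the 17 in each group, while 9 of the 17 markers were higher after AS, with a median difference of 0.04 and a mean difference of −0.09. RNA of cells other than CA3 neurons was thus counted in every group, and its part in the differences was not tested. After AS in ELS mice the medians of the dentate, astrocyte and oligodendrocyte lists were 0.20, 0.47 and 0.36.

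The AP-1 list held 11 genes with a mean of at least 3 out of 13, of which 10 were higher after AS and 6 by over 0.5, with a median of 0.55. The median was 0.32 over all 13 without the filter and 0.28 over those with a mean of at least 6. Fos was 8.94 in unstressed controls and 10.17 after AS, against 8.78 with ELS alone and 10.10 with ELS and AS. Its rlog value after AS corresponds to 2.35 times that of unstressed controls. Fosb, a relative of Fos that also gives rise to the long-lived splice form ΔFosB, was 8.38 and 9.45 without ELS and 8.51 and 9.31 with it. Both genes thus had high values in the 2 groups that swam and low values in the 2 that did not. Junb, an AP-1 subunit that can restrain Jun, followed the same order with 11.11 and 11.66, then 11.08 and 11.71. Atf3, a stress-induced factor of the ATF family, was 4.11 and 4.92 without ELS and 4.37 and 5.10 with it. Maff, a small Maf protein, was 3.95 and 4.67, then 4.10 and 4.84. Batf3 was 3.77 and 4.51 without ELS and 4.39 and 4.78 with it, so that the swim groups were higher in both backgrounds and the ELS mice that did not swim lay close to the controls exposed to AS. The other members differed less, by 0.07 for Jun, 0.22 for Fosl2, 0.24 for Mafk and 0.32 for Jund, and Mafg was on the other side at −0.37.

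All 6 genes of the Egr and Nab list were higher after AS, 3 of them by over 0.5, with a median of 0.47. Egr2, a zinc finger factor also known for myelination in peripheral nerve, had the widest gap, from 6.13 to 7.58 without ELS and from 5.96 to 7.46 with ELS. That is 2.73 times the value of unstressed controls. Egr1, a widely used marker of recent neuronal activity, was 12.43 and 13.20 without ELS and 12.65 and 13.22 with it. Egr4 was 9.95 and 10.73, then 9.98 and 10.75, nearly the same pair of values in both backgrounds. Egr3 differed by only 0.12, and the corepressors Nab1 and Nab2, which dampen Egr activity, by 0.14 and 0.18. Of the Nr4a nuclear receptors, Nr4a1 was 11.12 and 11.60 (difference 0.49), Nr4a2 differed by 0.20 and Nr4a3 by −0.02.

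**Figure D1:**
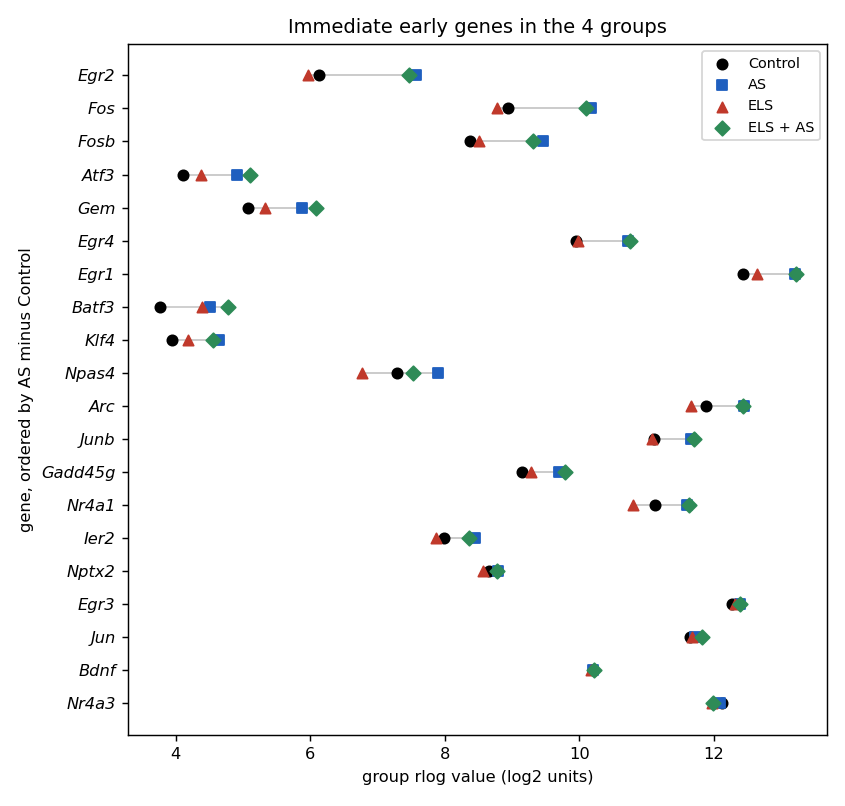
rlog value (log2 units, horizontal axis) of 20 immediate early genes in each of the 4 groups, with 1 point per group and genes ordered by AS minus Control. For Egr2, Fos, Fosb, Egr4, Egr1 and Junb both swim groups lie to the right of both groups that did not swim, while Bdnf and Nr4a3 show points close together.

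Other activity-induced factors were less uniform, with 13 of 19 higher, 2 by over 0.5 and a median of 0.07. Npas4, a factor specific to neurons that shapes inhibitory synapses after activity, was 7.28 in unstressed controls and 7.90 after AS. In ELS mice it was 6.77, below the unstressed controls, and 7.53 after AS. Klf4 differed by 0.69, Ier2 by 0.47 and Klf2 by 0.45, whereas Srf, which drives many of these genes from a constitutive level, differed by 0.03 and Myc by −0.08. Klf6 (−0.32), the repressor Rest (−0.35) and the insulin receptor substrate Irs2 (−0.36) were lower.

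Among 40 activity-induced effector genes, 25 were higher, 2 of them by over 0.5, and 2 were lower by over 0.5. Arc, which takes part in the endocytosis of AMPA receptors at active synapses, was 11.88 and 12.44 without ELS and 11.66 and 12.44 with it. Gem, a small GTPase that limits calcium channels at the membrane, was 5.08 and 5.88, then 5.33 and 6.09. Bdnf (−0.01), Homer1 (−0.07), Vgf (−0.13) and Nptx2 (0.14), also regulated by activity, lay close to the unstressed level. The neuronal pentraxin receptor Nptxr, which helps to cluster AMPA receptors, had the widest gap downward at −1.10. Its value was 11.88 in unstressed controls against 10.78, 10.86 and 11.12 in the AS, ELS and combined groups, so that the unstressed controls alone were high. Nptxr shares exon bases with Npcd. Arl5b (−0.51) was low in the same 3 groups.

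Feedback genes of the response were mostly higher, few of them by over 0.5. Of 18 MAP kinase phosphatases and Sprouty inhibitors kept, 13 were higher, none past 0.5, with a median of 0.10, led by Spred1 (0.37) and Spry4 (0.35). Of 9 Gadd45 and Btg/Tob genes, 7 were higher with a median of 0.22. Gadd45g, a stress-inducible gene of growth arrest and DNA repair, was 9.15 and 9.69 without ELS and 9.28 and 9.79 with it, and Gadd45b differed by 0.46. CREB, its coactivators and the SIK kinases divided into 7 higher and 7 lower. Sik1, a CREB target that feeds back on CREB coactivators, was 8.03 and 8.53, then 7.87 and 8.55. Crebbp and Sik2 each differed by −0.36.

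AS was also set against no AS in ELS mice, which used neither column of the comparison in controls. In that comparison 50.8% of genes were above 0 and 49.2% below. By over 0.5, 95 genes (0.634%) were higher and 17 (0.113%) lower after AS in ELS mice. The genes higher by over 0.5 in both backgrounds numbered 17, which is 7.26% of the list of the controls and 17.9% of that of the ELS mice, and none was lower in both. They were Arc, Atf3, BC002163, Egr1, Egr2, Egr4, Fos, Fosb, Gadd45g, Gem, Hspb1, Junb, Maff, Npas4, Plekhf1, Ppp1r3g and Rsrp1, a set collected after its values were seen. Hspb1, a small heat shock protein, was 5.11 and 5.62 without ELS and 5.39 and 5.96 with it. Ppp1r3g, which directs protein phosphatase 1 to glycogen, was 6.93 and 7.60, then 7.31 and 7.96. Plekhf1 differed by 0.79 in controls and 0.87 in ELS mice, Rsrp1 by 0.67 and 0.57, and BC002163 by 0.62 and 1.79. Across all genes kept, differences after AS in the 2 backgrounds had a Pearson correlation of −0.17 and a Spearman correlation of −0.25, as a description over genes that share libraries and depth within each column.

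**Figure D2:**
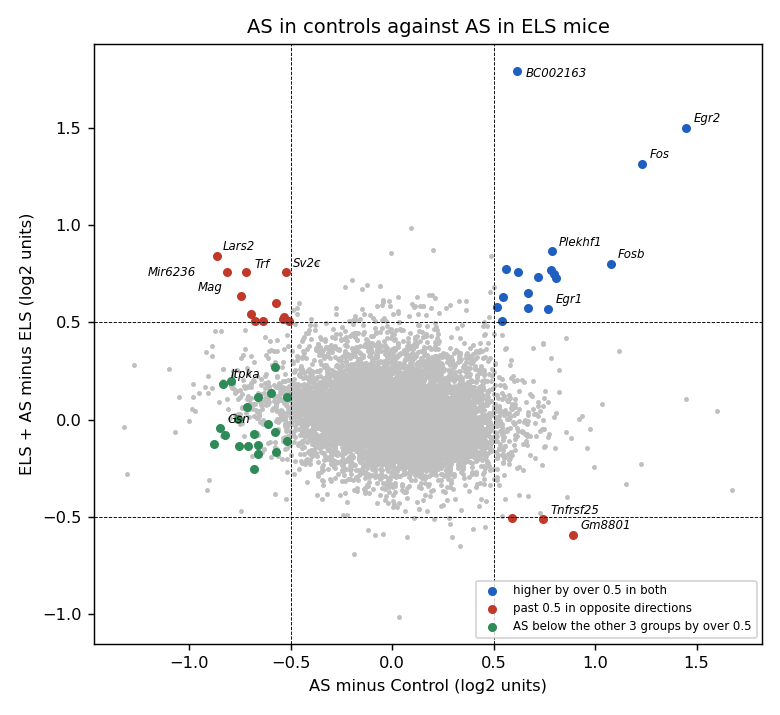
Difference after AS in controls (AS minus Control, horizontal) against that in ELS mice (ELS + AS minus ELS, vertical), both in log2 units, with 1 point per gene and dashed lines at 0.5 in either direction. The 17 genes higher in both lie at the upper right with Egr2 and Fos farthest out, 15 genes lie in the opposite corners, and the 21 genes lowest after AS without ELS lie at the left near 0 on the vertical axis.

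Sequences at the start of 4 of these genes are shown because CREB, a factor activated by calcium and cAMP, binds a site with the core TGACG, which its full palindromic site TGACGTCA contains. RefSeq windows (GRCm38.p6) run from 250 bases before to 50 after a gene's start. Capitals mark TGACG on the printed strand or CGTCA, the same letters on the other strand. The windows are at chr12:85473640-85473939 on the plus strand for Fos, and on the minus strand at chr7:19309996-19310295 for Fosb, chr6:85513540-85513839 for Egr4 and chr19:4989922-4990221 for Npas4.
Fos: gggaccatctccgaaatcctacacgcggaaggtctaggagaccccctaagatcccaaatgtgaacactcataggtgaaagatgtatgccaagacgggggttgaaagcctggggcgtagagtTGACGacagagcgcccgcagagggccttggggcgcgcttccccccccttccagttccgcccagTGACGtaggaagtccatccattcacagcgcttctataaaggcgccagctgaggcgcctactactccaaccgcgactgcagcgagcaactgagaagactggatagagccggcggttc
Fosb: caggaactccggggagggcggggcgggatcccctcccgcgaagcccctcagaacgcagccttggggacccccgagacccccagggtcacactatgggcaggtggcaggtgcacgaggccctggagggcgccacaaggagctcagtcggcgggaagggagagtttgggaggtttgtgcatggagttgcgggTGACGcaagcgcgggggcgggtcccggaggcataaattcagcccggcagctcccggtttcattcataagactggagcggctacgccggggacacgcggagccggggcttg
Egr4: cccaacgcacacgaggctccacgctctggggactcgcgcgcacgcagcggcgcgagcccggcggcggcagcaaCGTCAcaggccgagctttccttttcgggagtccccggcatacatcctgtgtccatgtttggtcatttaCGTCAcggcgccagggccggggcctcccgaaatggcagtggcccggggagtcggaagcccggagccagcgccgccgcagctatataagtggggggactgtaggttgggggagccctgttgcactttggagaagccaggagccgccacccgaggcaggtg
Npas4: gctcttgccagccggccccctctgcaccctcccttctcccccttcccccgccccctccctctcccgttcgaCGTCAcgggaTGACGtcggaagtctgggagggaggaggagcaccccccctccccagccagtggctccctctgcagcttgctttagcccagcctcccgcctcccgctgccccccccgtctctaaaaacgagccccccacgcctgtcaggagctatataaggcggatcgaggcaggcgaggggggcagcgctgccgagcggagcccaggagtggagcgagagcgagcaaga
The Fos, Egr4 and Npas4 windows hold 2 such cores each and the Fosb window 1. Of the 17 genes higher in both backgrounds, 13 had windows in the RefSeq table, 19 windows in all, and 14 of these held TGACG on either strand, in 11 genes. Over all 32851 windows the share was 20.8%. Egr2 had 5 of the 19 windows and Maff 3, so the windows are not independent. The windows of Gadd45g and Plekhf1 held no TGACG. The full TGACGTCA was in 1 of the 19 windows and in 1.79% of all. The CArG box, the site of serum response factor, was in 4 of the 19 windows, which all belonged to Egr2, and in 1.63% of all. Arc, BC002163, Egr1 and Gem had no window. A match describes these letters and is not a measured binding site. Sites farther from a gene's start were not searched, so no match in a window does not mean that a gene lacks the site.

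The genes in which controls exposed to AS lay below each of the other 3 groups by over 0.5 numbered 21 (0.14%), and 4 (0.0267%) lay above them by as much. By over 0.5 the unstressed controls lay below the other groups in 78 genes and above them in 131. By over 0.3, controls exposed to AS lay below in 107 genes (0.714%) and above in 43 (0.287%), and unstressed controls in 481 and 491. Among the 21 genes were Gsn, Itpka, Sptb, Heatr3, Limch1, Sptan1, Gm27021, Fbxo34, Myh10, Ppp1r9a, Pex5, Dbn1, Gas2l3, Fbxo46, Uso1, Fez1, Actn4, Lima1, Enpp1 and Mapk8ip2. Sptan1 encodes αII-spectrin, which pairs with β-spectrins in the lattice under the axonal and dendritic membrane. It was 15.56 in unstressed controls, 14.80 after AS, 15.70 with ELS and 15.56 with ELS and AS. Sptb, a β-spectrin, was 12.83, 12.00, 12.90 and 12.82 in that order. In both genes the group that swam without ELS was alone low, and the other 3 lay close together. Sptb shares exon bases with Plekhg3.

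Gsn (gelsolin), which severs and caps actin filaments in the presence of calcium, was 10.91, 10.06, 10.99 and 10.94 in unstressed controls, after AS, with ELS and with both. Itpka, a kinase of inositol trisphosphate that bundles actin in spines, was 13.60, 12.77, 13.64 and 13.83. Dbn1 (drebrin), which stabilizes actin in dendritic spines, was 13.59, 12.93, 13.78 and 13.65. Ppp1r9a (neurabin), a scaffold of protein phosphatase 1 on actin, was 13.20, 12.52, 13.41 and 13.16. Myh10, the heavy chain of nonmuscle myosin IIB, was 13.21, 12.53, 13.22 and 13.15. Actn4, an actin crosslinker, was 11.66, 11.08, 11.72 and 11.65. Each had a single low group, which is the position for which these genes were chosen.

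Families of the actin and spectrin cytoskeleton were listed after these values were seen, and their counts describe the same data. Spectrins, ankyrins and adducins were lower in 10 of 11 kept, 3 of them by over 0.5, with a median of −0.40, or −0.27 with the length trend removed. Controls exposed to AS were lowest of the 4 groups in 7. In that family Sptbn1 differed by −0.43 and Ank2 by −0.42, while Ank1 was higher by 0.19. Actin crosslinking and bundling proteins were lower in 19 of 26, 10 of them by over 0.5, with a median of −0.18, and the controls exposed to AS were lowest in 15. Tpm2 (0.58) was higher. Over all genes kept, controls exposed to AS were the lowest group in 24.0%. Myosin heavy chains and unconventional myosins were lower in 20 of 31 kept, 4 by over 0.5, with a median of −0.14, or −0.03 with the length trend removed and −0.27 over those with a mean of at least 6. Myo5a (−0.58), which carries cargo into spines, and Myo6 (−0.51) were among the 4. Of 16 myosin light chains and regulators kept, 7 were lower, with Mprip (−0.58) showing 13.57, 12.99, 13.75 and 13.37 in the 4 groups. Of 25 genes of actin, Arp2/3, cofilin and profilin kept, which form and turn over the filament itself, 9 were lower and 16 higher, none past 0.5, with a median of 0.04. Actb differed by 0.08 and Actg1 by −0.04.

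**Figure D3:**
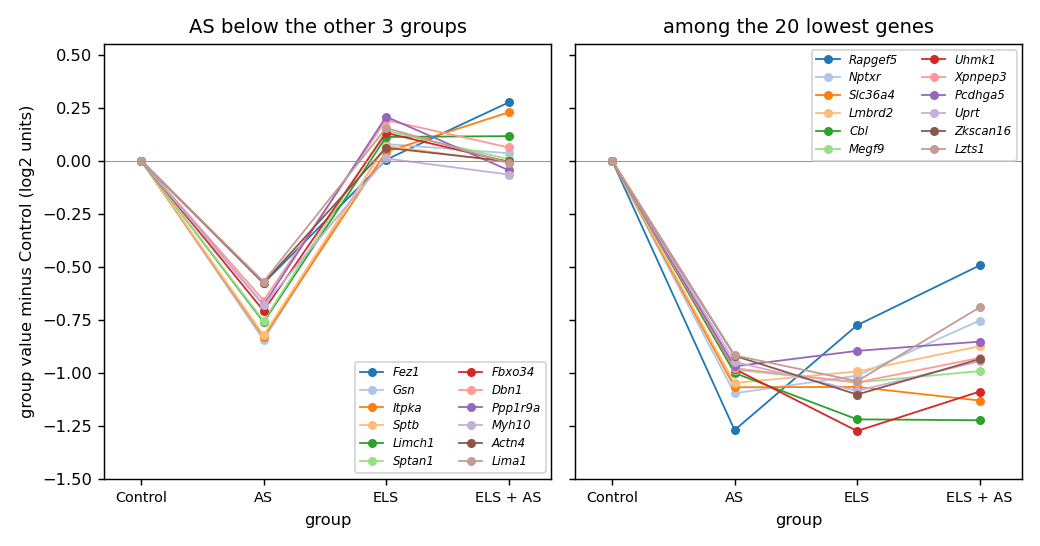
Group rlog value minus that of unstressed controls (log2 units) in the 4 groups for 12 genes in which AS lay below the other 3 groups (left) and 12 of the 20 lowest genes (right), with 1 line per gene. On the left only AS is low and ELS and ELS + AS return to near 0, while on the right AS, ELS and ELS + AS are all low.

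Few genes were high in controls exposed to AS alone. The 4 that lay above the other groups by over 0.5 were Zglp1, Tnfrsf25, Mirg and Col5a2. Zglp1, a GATA-like zinc finger gene known from germ cells, was 5.07, 6.67, 6.02 and 6.06 in unstressed controls, after AS, with ELS and with both. Tnfrsf25, a death receptor of the TNF receptor family, was 4.57, 5.31, 4.52 and 4.01. Mirg, a long non-coding RNA that hosts many microRNAs, was 5.16, 5.71, 5.15 and 4.93. Col5a2, a fibrillar collagen chain, was 3.72, 4.23, 3.70 and 3.38. All 4 have low rlog values, a range in which more genes passed 0.5. Among genes with a mean of 3 to 4, 4.03% were higher by over 0.5, against 0.533% where the mean was 12 or more.

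The 20 lowest genes after AS ranged from −1.32 to −0.89, and in all 20 the unstressed controls were the highest group. Controls exposed to AS were the lowest group in 7 of the 20 (24.0% over all genes kept). The choice of genes by this difference favors both positions, so that these counts are a description only. Rapgef5, an exchange factor for Rap GTPases, was 10.86 in unstressed controls and 9.59 after AS, and 10.08 and 10.36 in the ELS groups without and with AS. Slc36a4, an amino acid transporter, was 8.07 against 7.00, 7.01 and 6.94, and Cbl, a ubiquitin ligase that turns off receptor tyrosine kinases, was 7.82 against 6.82, 6.60 and 6.60. Uhmk1, Megf9, Lmbrd2, Xpnpep3, Uprt, Zkscan16, Lzts1, Glg1, Aff2, Nt5c1a and Gm4737 also had the unstressed controls on top, with differences from −1.05 to −0.89. Xntrpc (−1.30), a read-through of Xndc1 and Trpc2, cannot be told apart from them in its shared exons. It was 4.09 against 2.79, 2.75 and 2.47, so that its mean of 3.03 passed the filter only through the unstressed controls. Exon bases shared with another gene were found for 9 of the 20, and the libraries did not mark strand.

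The lowest entry of all, Mir7646, was 8.33 in unstressed controls, 7.01 after AS, 7.47 with ELS and 7.43 with both. It shares bases with an exon of Armcx5 and is at chrX:135746716-135746769 (GRCm38, plus strand). A further entry named for a microRNA, Mir6236, was 13.66, 12.85, 13.07 and 13.82. The mature sequences from RefSeq (GRCm38.p6) are printed with their seed, bases 2 to 8, in capitals, to show that they are different microRNAs with unlike seeds.
mmu-miR-7646-5p: aCAAGAGAacugaucagugcug
mmu-miR-6236: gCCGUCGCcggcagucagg
The libraries were made for long RNA, so these values are not read as levels of the mature microRNAs. No exon of another gene was found to overlap Mir6236, and where its reads came from was not tested. Lars2 had the same order of groups as Mir6236, at 15.65, 14.79, 15.03 and 15.87.

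Clustered protocadherins, adhesion proteins whose combinations give neurons an individual surface identity, made up 23 of the 312 lower genes together with their non-clustered relatives. Of 67 protocadherins kept, 60 were lower after AS, with a median of −0.38. All 19 of the gamma A and B genes were lower, 13 by over 0.5, with a median of −0.67. Group medians of these 19 were 6.67 in unstressed controls, 5.99 after AS, 5.95 with ELS and 6.13 with ELS and AS. Genes of the beta cluster were lower in 19 of 20 (median −0.35), those of the alpha cluster in 10 of 14 (−0.25), gamma C genes in 3 of 3 (−0.57) and non-clustered protocadherins in 9 of 11 kept (−0.17). Pcdhga5 was 6.85 against 5.88, 5.95 and 6.00, and Pcdhgc5 was 10.02 against 9.35, 9.42 and 9.53. Pcdha10 (0.41) was the exception with the widest gap upward, at 5.30, 5.71, 5.43 and 5.78. Unstressed controls were thus high and the other 3 groups alike in the gamma genes. Genes of the alpha cluster share constant exons, as do those of the gamma cluster, so values within each of these clusters are not independent of each other.

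**Figure D4:**
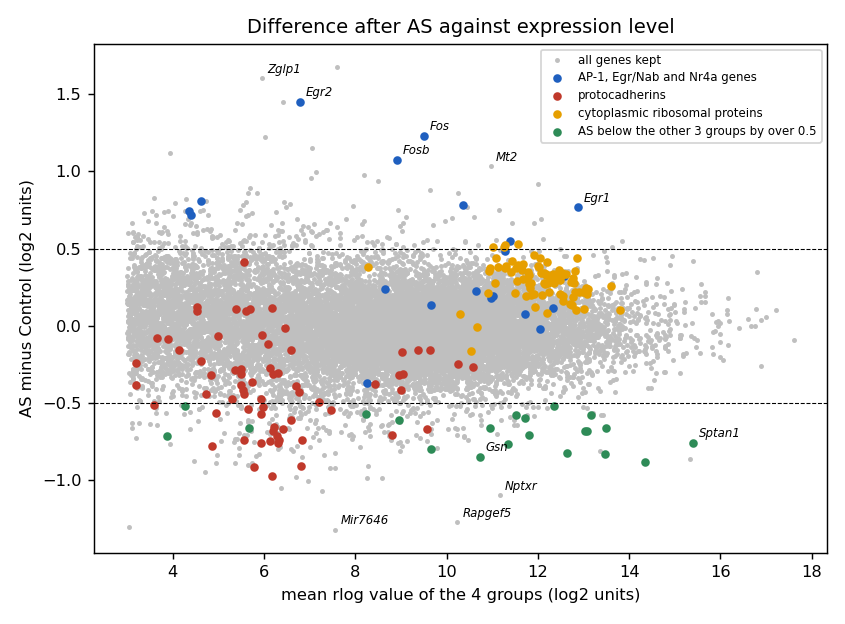
Difference after AS (AS minus Control, log2 units) against the mean rlog value of the 4 groups, with 1 point per gene, gene groups in color and dashed lines at 0.5 in either direction. Fos, Egr2 and Fosb lie far above the cloud, most protocadherins below 0, cytoplasmic ribosomal proteins in a band above 0, and the 21 genes lowest after AS below −0.5, most of them at high mean values.

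At the other end, the 20 highest genes ranged from 0.86 to 1.67. Of these 20, 12 had their highest value in controls exposed to AS (21.6% over all genes kept), a position that their choice by this difference favors. Besides Egr2, Fos and Fosb they held several transcripts that were low in unstressed controls only. The antisense transcript 1700113A16Rik, which shares exon bases with Mef2d, was 6.30 against 7.97, 8.22 and 7.86, and 1500017E21Rik was 5.34 against 6.79, 6.73 and 6.84. Reads of 1700113A16Rik and Mef2d cannot be told apart where they overlap. Ucp2, a mitochondrial carrier that limits membrane potential, was 7.94 against 8.87, 8.56 and 8.58, and Rad9b, a checkpoint clamp subunit, was 6.47 against 7.46, 7.41 and 7.16. Rpl37rt (1.15), by its name a retrotransposed copy of Rpl37, may share reads with that gene.

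Mt2 and Mt1, metallothioneins that bind zinc and are induced by glucocorticoids and metals, were the highest genes with a mean of at least 10. Mt2 was 10.22 in unstressed controls against 11.26 after AS, 11.15 with ELS and 11.23 with both, and Mt1 was 11.37 against 12.29, 12.18 and 12.18. Only the unstressed controls were low. The windows of both genes (RefSeq, GRCm38.p6, plus strand, chr8:94178839-94179138 and chr8:94172368-94172667) are shown because metal response elements are well known in them. Capitals mark TGCGCNC or TGCACNC, the core of that element, on either strand.
Mt1: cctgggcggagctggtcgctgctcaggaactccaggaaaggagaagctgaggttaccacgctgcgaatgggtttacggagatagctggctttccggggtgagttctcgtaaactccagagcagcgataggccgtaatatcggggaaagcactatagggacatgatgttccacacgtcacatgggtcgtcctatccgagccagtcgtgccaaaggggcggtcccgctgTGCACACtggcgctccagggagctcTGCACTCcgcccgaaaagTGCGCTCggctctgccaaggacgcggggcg
Mt2: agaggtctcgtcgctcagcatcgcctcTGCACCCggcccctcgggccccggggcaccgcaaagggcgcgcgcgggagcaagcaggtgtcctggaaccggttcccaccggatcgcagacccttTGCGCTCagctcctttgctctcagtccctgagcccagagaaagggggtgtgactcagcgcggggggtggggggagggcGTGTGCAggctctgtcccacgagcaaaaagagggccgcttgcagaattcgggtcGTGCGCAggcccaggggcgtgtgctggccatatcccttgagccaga
The Mt1 window holds 3 matches and the Mt2 window 4, where 25.7% of all windows hold at least 1.

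Genes known to be induced by glucocorticoids were higher in 20 of 25 kept, 4 of them by over 0.5, with a median of 0.20. Besides the metallothioneins, Arrdc2 was 8.14 and 8.69 without ELS and 8.42 and 8.60 with it, and Fam107a, an actin-associated stress gene, was 12.16 and 12.66, then 12.51 and 12.58. Tsc22d3 (GILZ), a classical target of the glucocorticoid receptor, was 10.86 and 11.24, then 11.13 and 11.31. Sgk1 differed by 0.11, Fkbp5 by −0.03 and Ddit4 by 0.07, and Zbtb16 (−0.56) and Klf9 (−0.38) were lower. The list thus divided, with well-known targets on both sides of 0. Among 13 corticosteroid receptors, coregulators and chaperones, 10 were lower with a median of −0.08, or −0.02 with the length trend removed. Nr3c2, the mineralocorticoid receptor, was 11.90 in unstressed controls against 11.29, 11.32 and 11.42, a difference of −0.61 after AS. Nr3c1, the glucocorticoid receptor, was 11.15 and 11.05, then 11.17 and 11.23.

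Circadian clock genes differed little. Of 23 genes, 10 were higher and 13 lower, none past 0.5, with a median of −0.02, or 0.03 with the length trend removed, and a range from −0.11 to 0.36. Arntl differed by −0.04, Clock by 0.04 and Per2 by −0.05. Per1, which is also induced by activity and glucocorticoids, was 10.86 and 11.08 without ELS and 10.71 and 11.13 with it. Dbp (0.32) and Rorb (0.36) had the widest gaps, and in both the unstressed controls were lowest. Stress peptides and their receptors were higher in 10 and lower in 13 of 23 kept. Npy2r, a presynaptic receptor of neuropeptide Y, was 9.66 against 9.13, 9.19 and 9.10. Crh was 3.71 and 4.12, then 3.90 and 3.99, and Scg2, a precursor of vesicle peptides, was 10.46 and 10.02, then 9.90 and 10.32.

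Genes of cellular stress pathways lay on both sides of 0. Of 36 genes of the unfolded protein and integrated stress response kept, 9 were higher and 27 lower, none past 0.5, with a median of −0.14. The highest were transcription factors and a phosphatase subunit of the integrated stress response, with differences of 0.46 for Ppp1r15a, 0.45 for Atf5, 0.40 for Ddit3 and 0.39 for Atf4. Among the lower members were the sensors Ern1 (−0.46) and Eif2ak3 (−0.32) and the chaperone Canx (−0.42) of the endoplasmic reticulum. Heat shock proteins were higher in 17 and lower in 29 of 46, with a median of −0.05 and with Hspb1 (0.52) and Cryab (0.49) at the top. NF-κB genes were higher in 5 and lower in 10 of 15, led downward by Rel (−0.57). Of 25 MHC class I and interferon-induced genes kept, 15 were higher, and of 21 cytokines and receptors kept, 8, none past 0.5.

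Synaptic and channel genes leaned downward. Release machinery was lower in 40 of 56 with a median of −0.10, or −0.06 with the length trend removed, led by Rims1, an active zone organizer (10.72 against 10.06, 9.96 and 9.97). Neurexins, neuroligins, LRRTM proteins and their partners were lower in 23 of 27 kept with a median of −0.16, or −0.08 with that trend removed, led by Slitrk3 (−0.64) and Slitrk4 (−0.53). Group medians in unstressed controls, AS, ELS and both were 11.87, 11.71, 11.68 and 11.64 for release machinery. For the neurexin list they were 9.27, 9.03, 8.90 and 8.98. In the postsynaptic density, 20 of 24 scaffolds were lower with a median of −0.09, or 0.01 with the length trend removed. Sipa1l1, a regulator of spine shape that binds actin, was 13.15, 12.63, 13.11 and 13.02 across unstressed controls, AS, ELS and both, low only after AS without ELS. Shank2 (−0.52) was low also with ELS.

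Receptor and channel lists showed the same lean with few members past 0.5. Ionotropic glutamate receptors were lower in 17 of 20 kept (median −0.19, or −0.11 with the length trend removed), with Gria2 at 12.30 against 11.99, 11.92 and 12.03 and Grin1 at 12.08 against 11.79, 11.72 and 11.79. GABA-A receptor subunits were lower in 10 of 13 kept (median −0.18, or −0.12), led by Gabra2 (−0.50). Receptors for monoamines and acetylcholine were lower in 21 of 27 kept (median −0.16), 3 of them by over 0.5. These were Chrna7, the α7 nicotinic receptor (7.10 against 6.43, 6.33 and 6.26), Chrm3 (−0.64) and Htr2a (−0.60). Potassium channels were lower in 48 of 73 kept (median −0.10, or −0.06) and calcium channels in 15 of 24 kept (median −0.09, or −0.00098 with the length trend removed), led by Kcnk9 (−0.67) and Cacna1e (−0.67). In Gria2, Grin1 and Chrna7 the unstressed controls were high and the other 3 groups close together. Ephrins and Eph receptors were lower in 15 of 20 kept and neurotrophin genes in 9 of 11 kept, with Ntrk2 at −0.08.

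Genes of ribosomes and respiration were mostly higher. Cytoplasmic ribosomal proteins, with a median transcript length of 1059 bases, were higher in 81 of 83 kept, 4 by over 0.5, with a median of 0.30, or 0.14 with the length trend removed. Group medians of the list were 11.92 in unstressed controls, 12.20 after AS, 12.22 with ELS and 12.17 with both, so that unstressed controls were low. Rps29 (0.53) and Rpl37a (0.52) led, while Rps28 (−0.17) and Rpl7l1 (−0.01) were the 2 below 0. Mitochondrial ribosomal proteins were higher in 61 of 78 (median 0.09, or 0.01 with the length trend removed). Complexes III to V were higher in 40 of 47 (0.17, or 0.002) and complex I in 37 of 46 (0.12), which turned to −0.03 with the length trend removed. The core subunits Ndufs1 (−0.24) of complex I and Atp5b (−0.19) of ATP synthase were below 0. Histone genes were higher in 22 of 27 kept out of 75 (median 0.23, or 0.11 with the length trend removed and 0.06 without the filter on the mean), and Hist1h2br was 5.43, 6.29, 5.60 and 6.02 across unstressed controls, AS, ELS and both.

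Nuclear and host long non-coding RNAs were higher in 24 of 25 kept, 8 by over 0.5, with a median of 0.44. Controls exposed to AS were the highest group in 18 of them, against 21.6% of all genes kept. Malat1, a nuclear RNA of splicing speckles, was 9.92 in unstressed controls, 10.78 after AS, 10.33 with ELS and 9.93 with both. Meg3 was 11.90, 12.24, 12.00 and 11.35 in the same order, and Gas5, a small nucleolar RNA host, was 10.05, 10.60, 10.52 and 10.43. In ELS mice the median of the list after AS was −0.09, with 3 of 25 higher. By annotation, 171 of 228 lincRNAs and 152 of 183 antisense RNAs were higher, with medians of 0.16 and 0.19, against 6514 of 13969 protein-coding genes with a median of −0.02. Splicing factors and hnRNP proteins were higher in 39 of 53, none past 0.5, with a median of 0.07, or 0.11 with the length trend removed, and Srsf9 (0.39) and Tra2a (0.37) at the top.

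Protein turnover and intermediary metabolism were mostly below 0. Ubiquitin-specific proteases were lower in 40 of 46 kept (median −0.18, or −0.12 with the length trend removed), led by Usp13 (−0.57). Proteasome genes were lower in 31 of 42 kept (median −0.07, or −0.18 with the length trend removed). Controls exposed to AS were the lowest group in 26 of them, against 24.0% of all genes kept. Psmd11, a lid subunit, was 10.84, 10.36, 10.53 and 10.59 across unstressed controls, AS, ELS and both. Lysosomal genes were lower in 33 of 43 (median −0.11), with Lamp2 (−0.38), Gaa (−0.36) and Psap (−0.36) at the bottom. Listed aminoacyl-tRNA synthetases, which charge transfer RNAs, were lower in 19 of 22 (median −0.11), none of them past 0.5. The list does not hold Lars2, the mitochondrial leucyl-tRNA synthetase, whose entry differed by −0.86. That entry had the same order of groups as Mir6236, and where its reads came from was not tested. Cholesterol synthesis and TCA cycle genes were lower in 20 of 25 each, with medians of −0.11 and −0.05, or −0.06 and −0.09 with the length trend removed, and Dld (−0.32) was the lowest of the TCA cycle genes. Glycolysis and hypoxia genes were lower in 22 of 32, with Hif1a (−0.48) at 10.78 against 10.29, 10.36 and 10.43. With each group centered on its median, list medians were −0.14 for ubiquitin-specific proteases and −0.04 for the proteasome. They were −0.07 each for the lysosome, aminoacyl-tRNA synthetases and cholesterol synthesis, −0.01 for the TCA cycle and −0.02 for glycolysis and hypoxia.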

How the data were processed

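The RNA was sequenced by the authors as 100-base single-end reads from a kit that does not mark strand. After trimming and filtering, the authors mapped reads to mm10 with Rsubread, quantified transcripts with Salmon, summed them to genes with tximport and transformed counts with the rlog of DESeq2. Tool versions are not given in the sources used here. The deposited values are on the log2 scale, 1 per gene and group, from −2.22 to 17.71. How libraries were combined per group, and whether a limma batch correction named for the heatmaps is included, is not stated. No count or depth per library was used here, so precision is unknown and nothing was tested. Replicates are pools of 5 to 6 mice.

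Differences of group values were computed in Python 3.11.15 (numpy 2.4.6, pandas 2.3.3, scipy 1.17.1, matplotlib 3.10.9) for genes whose 4 group values averaged 3 or more, counted past 0.5, and summarised for 68 lists. The members and these lists were chosen with earlier results of these data known, and 5 actin and spectrin lists were added after the values were seen. Genes named are the 20 highest and 20 lowest, the 10 highest and 10 lowest with a mean of at least 10, the 4 highest and 4 lowest members of every list, members of the immediate early, clock and corticosteroid receptor lists, and Gprin3. Others named were chosen after their values were seen, and some genes under this rule are not reported here. Gene positions and the longest transcript of 14694 genes (98.1%) came from GENCODE M21 on GRCm38. Alternatives were other sizes, filters, centering, the mean of a list, and removal of the median difference of like transcript length in 50 bins. Counting was checked on simulated data.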

Additional observations from a re-analysis of the deposited data

Results flagged for a closer look

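In 15 genes the difference after AS was past 0.5 in opposite directions in controls and in ELS mice. The difference between the backgrounds was not tested, since each group has 1 value. Lower in controls and higher in ELS mice were Lars2 (−0.86 and 0.84), Mir6236 (−0.81 and 0.76), Mag (−0.74 and 0.64), Trf (−0.72 and 0.76), Cldn11 (−0.70 and 0.54), Unc5b (−0.68 and 0.51), Adamts4 (−0.64 and 0.51), Gpr17 (−0.57 and 0.60), Rassf8 (−0.54 and 0.52), Tnfaip6 (−0.53 and 0.53), Sv2c (−0.52 and 0.76) and Olfml1 (−0.51 and 0.51). Higher in controls and lower in ELS mice were Gm8801 (0.89 and −0.59), Tnfrsf25 (0.74 and −0.51) and Cfp (0.59 and −0.51).

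Several of the first set are known from the oligodendrocyte lineage. Mag, an adhesion protein of myelin, was 9.82 in unstressed controls, 9.08 after AS, 9.39 with ELS and 10.02 with both. Cldn11, a tight junction protein of myelin, was 9.90, 9.20, 9.51 and 10.05 in the same order. Trf (transferrin) was 10.59, 9.87, 10.14 and 10.90, and Gpr17, a receptor of immature oligodendrocytes, was 7.52, 6.95, 7.14 and 7.74. In each of these 4 genes controls exposed to AS were the lowest group and ELS mice exposed to AS the highest. Other myelin genes did not share the gap in controls, with Mbp at 13.56, 13.89, 13.88 and 14.07 and Mobp at 11.55, 12.24, 12.16 and 12.29. Over the 17 oligodendrocyte markers, 8 were lower after AS in controls and 17 higher in ELS mice, and the part of glial RNA in these values was not tested. The entry of Lars2, the mitochondrial leucyl-tRNA synthetase, was 15.65, 14.79, 15.03 and 15.87. It had the same order of groups as Mir6236, and where its reads came from was not tested.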

How the results depend on the processing

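No paired analysis was possible because the table holds 1 value per group and no values per library, and for the same reason no library could be left out. At a size of 0.25, 1710 genes were higher and 1846 lower after AS, and at 1, 10 and 7. With a mean of at least 6, 118 were higher, against 234 at a mean of at least 3, because fewer genes enter, and 241 were lower. The counts without a filter (257 and 319), after centering (312 and 240) and with the length trend removed (184 and 228) lay within 1.5 times the main ones. With the length trend removed, 146 of the 234 higher and 203 of the 312 lower genes were still past 0.5. Of the 68 lists, 31 had a median above 0, and 27 to 35 under the alternatives. The median of complex I turned from 0.12 to −0.0306 with the length trend removed, and the cause was not tested. Of 660 named genes, 170 were past 0.5, 169 after centering and 137 with the length trend removed, and none of the 652 with a known length that was past 0.5 turned its sign. Low rlog values limit the reading of genes with few reads, whose differences are shrunk.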

Other observations

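Some gene groups outside the lists of stress and synapse showed single members apart from their family. Zinc finger genes of the Zfp series were evenly divided, with 184 higher and 182 lower of 366 kept and a median of 0.00, yet Zfp605 was 8.48, 9.23, 8.93 and 9.08 in unstressed controls, after AS, with ELS and with both, and Zfp551 was 5.95, 5.16, 5.26 and 5.42. Kinesins and dyneins divided into 31 higher and 32 lower, with Kif13b at −0.78 and Kif5a, a motor of axonal transport, at 0.44. Collagens, laminins and integrins divided into 32 and 32, with Itgb8 at −0.70. Solute carriers were lower in 172 of 257 kept with a median of −0.09, and Rab GTPases higher in 42 of 66 with a median of 0.05. The hemoglobin transcripts kept were Hba-a2, Hbb-bs and Hbb-b2, with differences of 0.88, 0.67 and 0.65, and Hba-a2 was 8.98, 9.86, 9.89 and 9.80 in the 4 groups, low in unstressed controls only.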
